A study of Homo sapiens with 6 samples.

Results

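Interferon-stimulated genes were followed across 3 siRNA groups of U2OS cells, a human osteosarcoma line. The members were 40 listed genes, and a probe set counted as theirs when its annotation gave exactly 1 gene symbol and that symbol, or an older alias, was on the list. This gave 39 probe sets for 39 genes, out of 33297 probe sets on the array, of which 19460 had exactly 1 symbol. STAT2 had no such probe set and was not analysed here. Total RNA was hybridised to Affymetrix arrays from cells in which siRNA targeted H3.X together with H3.Y (combined siRNA), H3.Y, or luciferase as the control, with 2 arrays in each group. H3.X and H3.Y are primate-specific variants of histone H3. Cells of all groups grew in DMEM with serum, received siRNA in 2 transfections with oligofectamine and were collected 4 days after transfection. No group without siRNA was analysed here, and the labels give neither the siRNA sequences nor whether the combined group received a mixture. The annotation named 0 probe sets for H3Y1 or H3Y2, the genes of H3.Y and H3.X, so the knockdowns were not checked here.

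Double-stranded RNA is sensed in the cytoplasm by the RIG-I-like helicases and in endosomes by TLR3, which leads to secretion of type I interferon. Interferon acts through its receptor on a complex that holds STAT2 and IRF9 and binds interferon-stimulated response elements in the promoters of genes such as the IFIT, OAS and MX families. Products of these genes bind or degrade viral RNA, block viral entry or exit, or amplify the response. Short RNA duplexes brought in by transfection can engage the same sensors in some cell types.

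Stretches that hold the response element described above, or a close form of it, are printed for 6 of the 9 members that passed a test below, and for ISG15 and IFI6, which passed none. Of the other 3 that passed, IRF1 and HERC6 held neither form in their windows and OASL had no window, so the printed stretches were chosen for holding a match. Windows from 250 bases before to 50 after each annotated start came from RefSeq (GRCh38.p14) and matched 32 of the 39 measured genes by symbol. MX2, DHX58, OAS2, OASL, USP18, IFIT2 and IRF7 had no entry. Capitals mark the response element core, searched as GAAA, any 2 bases and GAAA again, or TTTC, any 2 bases and TTTC on the other strand. In OAS1 they mark the same repeat with any 1 base as the spacer. Each line runs 5′ to 3′ on the strand of the gene.
IFIT3, chr10:89327821-89327904, plus strand: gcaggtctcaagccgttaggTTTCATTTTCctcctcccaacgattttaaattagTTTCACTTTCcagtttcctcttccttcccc
IFIT1, chr10:89392487-89392549, plus strand: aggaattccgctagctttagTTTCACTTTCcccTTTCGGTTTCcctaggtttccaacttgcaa
IFI44, chr1:78649751-78649788, plus strand: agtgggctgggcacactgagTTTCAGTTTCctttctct
CXCL10, chr4:76023689-76023738, minus strand: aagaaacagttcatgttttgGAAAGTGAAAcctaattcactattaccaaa
SAMD9, chr7:93118086-93118135, minus strand: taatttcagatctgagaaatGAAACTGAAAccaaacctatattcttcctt
OAS1, chr12:112906925-112906961, plus strand: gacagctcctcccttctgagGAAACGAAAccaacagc
ISG15, chr1:1013364-1013419, plus strand: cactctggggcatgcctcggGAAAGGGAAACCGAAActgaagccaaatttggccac
IFI6, chr1:27672319-27672368, minus strand: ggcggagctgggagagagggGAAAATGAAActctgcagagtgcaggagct

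The core was present in at least 1 window of 23 of the 32 genes (71.9%), against 4.38% of all 27305 genes with a window and 3.57% of the 35116 windows. The repeat with the shorter spacer, which can overlap the core, was in 13 of the 32 (40.6%), against 3.87% of genes. The gamma-activated site, an element of interferon gamma responses, searched as TTC, any 3 bases and GAA, which reads alike on both strands, was in 11 of the 32 (34.4%), against 9.38% of genes. OAS1, IFI35, CXCL11, IRF1 and IRF9 held this site and no core, and of these IRF1 and IRF9 also lacked the shorter repeat. The motifs were searched as letters only, and a match is no evidence of binding.

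**Figure D1:**
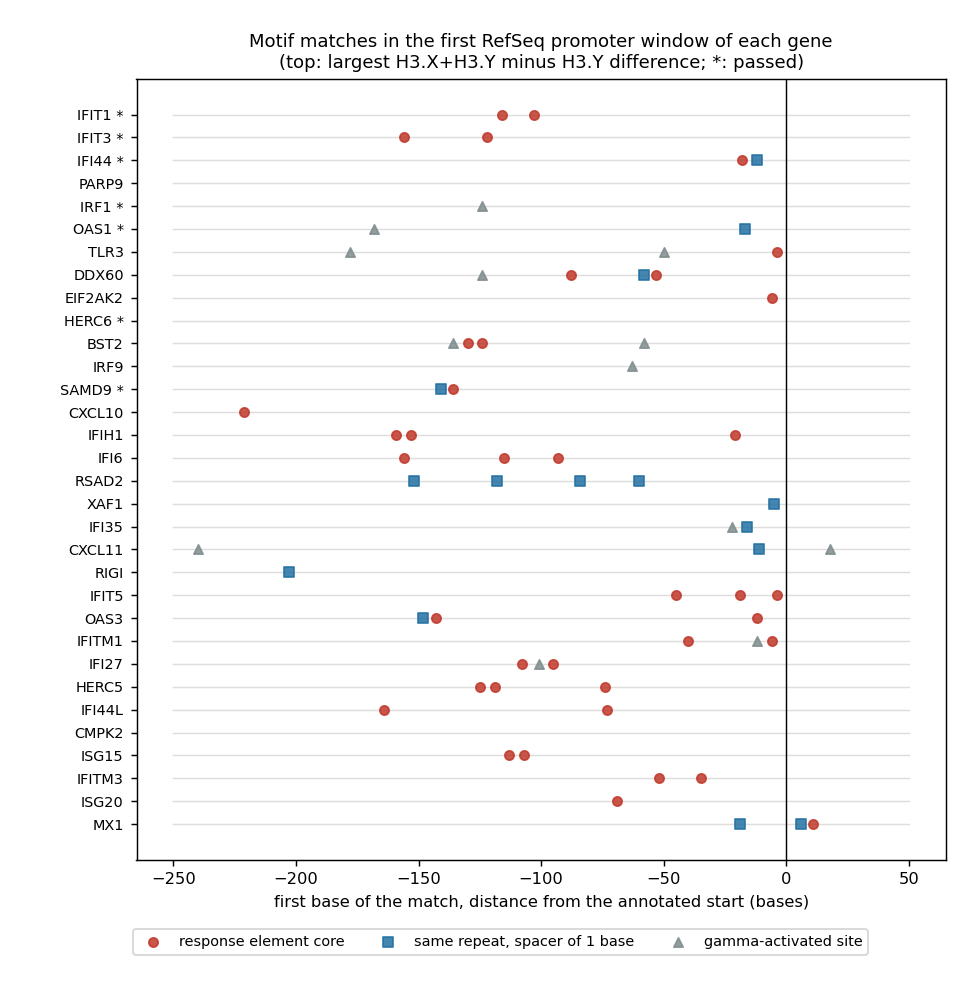
Motif matches in the first listed promoter window of 32 members; the horizontal axis is the distance in bases of the first matched base from the annotated start, and genes run downward from the largest combined minus H3.Y difference, with a star on those that passed in that comparison. Response element cores (circles) are present at both ends of the order, for example in IFIT1 at the top and in ISG15 and ISG20 near the bottom.

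Values are on a log2 scale. Array medians lay between 5.10 and 5.14, arrays of the same group correlated with r of 0.986 to 0.992 over all probe sets, and arrays of different groups with 0.978 to 0.987. The arrays are labelled biological replicates, but the labels do not describe separate cultures, and the p-values therefore reflect only how far these arrays lie apart, which may be technical. In such bulk RNA, fewer cells expressing a gene and less of its RNA per cell cannot be told apart. Of the osteoblast-lineage markers, COL1A1 ranged from 8.33 to 10.73 and SPARC from 9.94 to 11.55 over the 6 arrays, while IBSP stayed at 3.05 to 3.36. The leukocyte marker PTPRC was at 1.89 to 2.29, below the bound of 3.33 under which the lowest 25% of all probe sets fall. LYZ, with a mean of 2.48, was also below it. The other measured blood and immune markers were above it, with means of 3.50 for CD3E, 4.41 for CD14, 4.98 for ITGAM and 3.62 for HBB.

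With combined siRNA, IFIT3 and CXCL10 were higher than with luciferase siRNA, 2 of 39 members, and 0 were lower, where 1.84% of all probe sets passed, 0.859% as higher and 0.985% as lower. With H3.Y siRNA, 0 members passed against luciferase siRNA, where 0.279% of all probe sets did, 0.0841% as higher and 0.195% as lower. Between the combined and the H3.Y siRNA, 8 members were higher with combined siRNA and 0 lower, where 4.67% of all probe sets passed, 2.74% as higher and 1.92% as lower. These 8 were IFIT1, IFIT3, OAS1, OASL, IFI44, IRF1, HERC6 and SAMD9. A probe set passed at a Benjamini-Hochberg adjusted p under 0.05 over all 33297 probe sets in limma, fitted to all 6 arrays. Of the 19460 probe sets with exactly 1 symbol, as the members had, 2.667%, 0.385% and 6.665% passed in these comparisons, in the order given. IFIT3 passed in both comparisons of the combined siRNA, and 30 of the 39 members passed in none.

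At an unadjusted p under 0.05 in limma, 14 members were higher and 0 lower with combined than with luciferase siRNA, where 15.3% of all probe sets met this, 7.16% as higher and 8.12% as lower. With H3.Y siRNA, 0 members were higher and 9 lower than with luciferase siRNA, beside 13.9% of all probe sets, 6.21% as higher and 7.66% as lower. Between combined and H3.Y siRNA, 20 were higher and 2 lower, beside 19% of all probe sets, 9.72% as higher and 9.28% as lower. The 2 lower members were ISG20 and MX1. Both combined arrays exceeded both luciferase arrays for 21 members, beside 23.4% of all probe sets, and were below both for 2, beside 24%. Both H3.Y arrays exceeded both luciferase arrays for 3, beside 21.7%, and were below both for 14, beside 20%. Both combined arrays exceeded both H3.Y arrays for 27, beside 21.2%, and were below both for 3, beside 25.4%. Among probe sets with exactly 1 symbol, the shares above and below were larger. They were 27.5% and 26.1% for combined against luciferase siRNA and 23.3% and 23.2% for H3.Y against luciferase siRNA. Between combined and H3.Y siRNA they were 26.3% and 27.6%.

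By group means, 29 of 39 members were higher and 10 lower with combined than with luciferase siRNA, with a median log2 difference of 0.33, where the median of all probe sets was 0.00. With H3.Y siRNA 12 were higher and 27 lower than with luciferase siRNA, with a median of -0.10, beside 0.02 for all probe sets. This median was -0.22 without luciferase array 1 and -0.23 over the 27 members with a mean of at least 5. These comparisons share the luciferase arrays. Between combined and H3.Y siRNA, 33 were higher and 6 lower, with a median of 0.57, beside -0.03 for all probe sets. Both combined arrays lay above the other 4 arrays for 21 of 39 members, where 11.9% of all probe sets did so. For TLR3, DDX60, IFIT1, OAS1, IFI44, SAMD9, IRF9 and HERC6, both combined arrays were above and both H3.Y arrays below the luciferase arrays, which held for 3.92% of all probe sets.

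**Figure D2:**
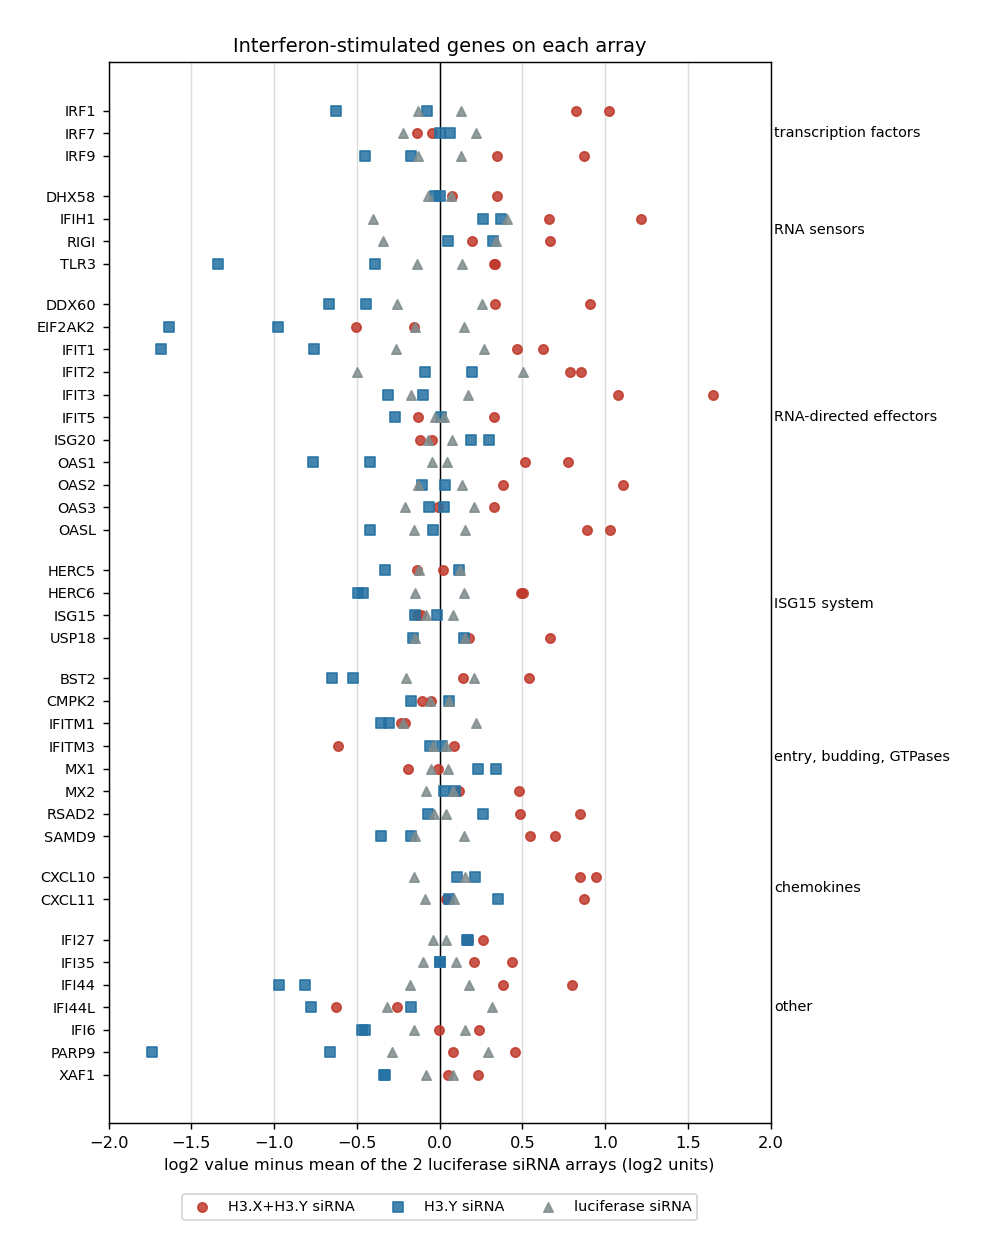
Each of the 39 members on each of the 6 arrays, in log2 units minus the gene's mean over both luciferase arrays (horizontal axis), with genes grouped by role (vertical axis). Circles are combined H3.X+H3.Y siRNA, squares H3.Y siRNA and triangles luciferase siRNA; for 21 genes both circles lie to the right of all other symbols.

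Arrays of the same group differed in these genes too. The array numbered 2 gave the higher value for 32 of 39 members with combined siRNA, 24 with H3.Y siRNA and 30 with luciferase siRNA, where the shares of all probe sets were 46.4%, 51.8% and 47.8%. Relative to the luciferase mean, the members' median was 0.21 and 0.45 on the combined arrays and -0.10 and -0.11 on the H3.Y arrays, against -0.14 and 0.14 on the luciferase arrays. The combined arrays were thus above both luciferase arrays in this median, and the H3.Y arrays lay within the luciferase range.

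The RNA-directed effectors, which bind, sequester or cut foreign RNA, held 4 of the 8 members that passed between combined and H3.Y siRNA. Over the 11 genes the median log2 difference was 0.62 for combined against luciferase siRNA, -0.20 for H3.Y against luciferase siRNA and 0.98 for combined against H3.Y siRNA. IFIT3, a binding partner of IFIT1 on foreign RNA, had log2 values of 6.28 and 6.85 with combined siRNA and 5.10 and 4.89 with H3.Y siRNA, against 5.03 and 5.37 with luciferase siRNA. Both combined arrays were above the other 4, and H3.Y and luciferase arrays overlapped. IFIT3 was 2.57-fold higher with combined than with luciferase siRNA (log2 1.36 ± 0.23 SE, n = 2 arrays each, limma adjusted p = 0.0467) and 2.96-fold higher than with H3.Y siRNA (adjusted p = 0.0215).

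IFIT1, which binds RNA lacking the methylation of host caps, gave 5.98 and 6.14 with combined siRNA and 3.83 and 4.75 with H3.Y siRNA, against 5.25 and 5.78 with luciferase siRNA. The 3 groups did not overlap, with luciferase in the middle. It was 3.41-fold higher with combined than with H3.Y siRNA (log2 1.77 ± 0.32 SE, n = 2 arrays each, limma adjusted p = 0.0366), while neither comparison with luciferase passed (adjusted p = 0.53 and 0.18 for combined and H3.Y siRNA). IFIT2 and IFIT5, which lie with them on chromosome 10, passed in no comparison, at log2 differences of 0.77 and 0.23 between combined and H3.Y siRNA.

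OAS1 makes the short oligoadenylates that activate RNase L. It gave 6.95 and 7.22 with combined siRNA and 5.67 and 6.02 with H3.Y siRNA, against 6.39 and 6.49 with luciferase siRNA. The groups again did not overlap, and OAS1 was 2.36-fold higher with combined than with H3.Y siRNA (log2 1.24 ± 0.17 SE, n = 2 arrays each, limma adjusted p = 0.0192). OASL, an OAS relative without that enzyme activity, gave 6.14 and 6.27 with combined siRNA and 4.82 and 5.20 with H3.Y siRNA, against 5.09 and 5.40 with luciferase siRNA. Its H3.Y and luciferase arrays overlapped, and it was 2.28-fold higher with combined than with H3.Y siRNA (adjusted p = 0.0253). OAS2 and OAS3, also on chromosome 12, passed in no comparison, with log2 differences of 0.79 and 0.17 between combined and H3.Y siRNA.

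EIF2AK2 encodes PKR, the kinase that halts translation on binding double-stranded RNA. Its values were 8.42 and 8.77 with combined siRNA and 7.29 and 7.94 with H3.Y siRNA, against 8.78 and 9.07 with luciferase siRNA. The H3.Y arrays were the lowest and the combined arrays lay just under the luciferase arrays, and no comparison passed (log2 difference of H3.Y minus luciferase -1.31 ± 0.26 SE, n = 2 arrays each, limma adjusted p = 0.106). DDX60, a helicase cofactor, had a combined minus H3.Y difference of 1.18 (adjusted p = 0.0568), and ISG20, an exonuclease, had -0.33.

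**Figure D3:**
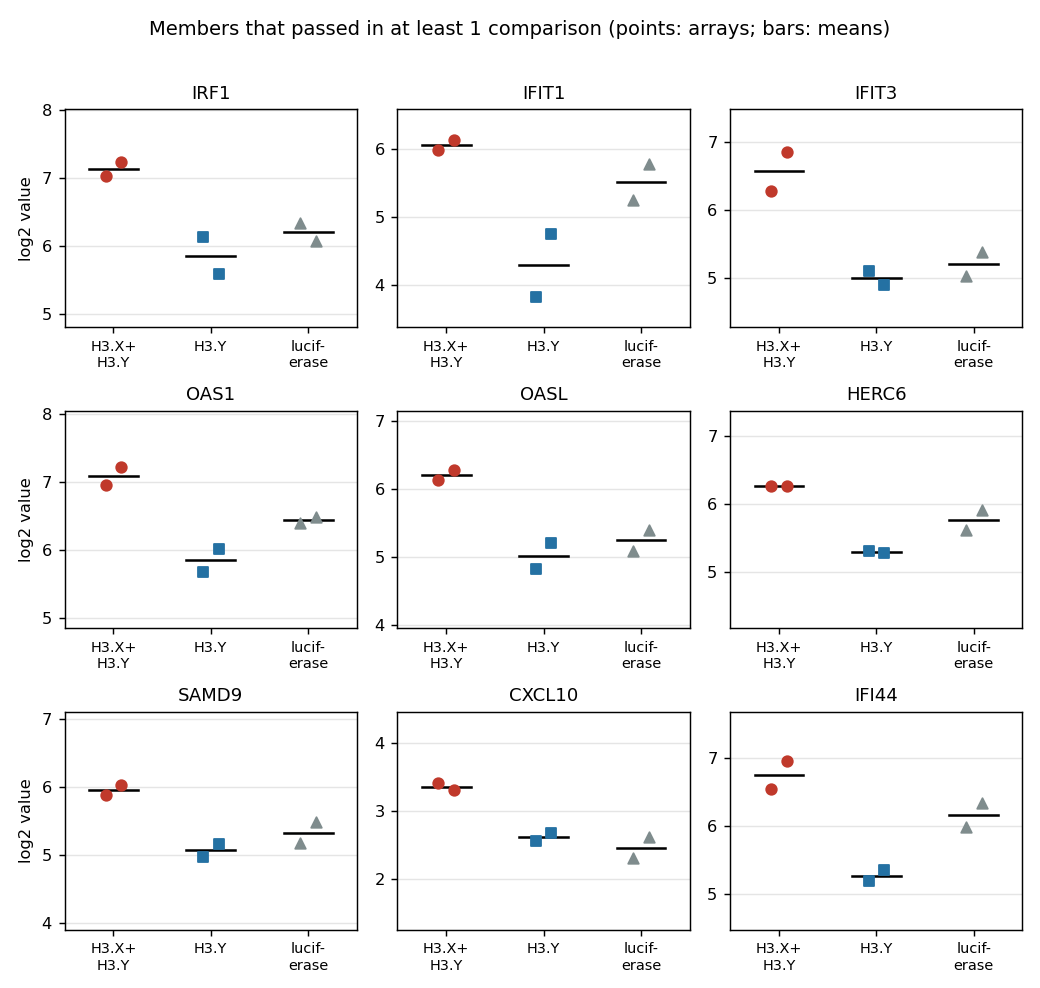
Log2 values of the 9 members that passed in at least 1 comparison; points are single arrays, bars are group means, and every panel spans the same height in log2 units. The combined arrays are above the other 4 in each panel, as for IFIT3 at 6.28 and 6.85.

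Among the transcription factors, IRF1 passed between the siRNA groups directed at histones. IRF1 is itself induced by interferon and activates many of the same promoters. It gave 7.03 and 7.23 with combined siRNA and 6.13 and 5.58 with H3.Y siRNA, against 6.33 and 6.08 with luciferase siRNA. The combined arrays stood above the rest, while H3.Y and luciferase overlapped, and IRF1 was 2.42-fold higher with combined than with H3.Y siRNA (log2 1.27 ± 0.22 SE, n = 2 arrays each, limma adjusted p = 0.0304).

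IRF9, a DNA-binding partner of STAT2, gave 6.11 and 6.64 with combined siRNA and 5.31 and 5.59 with H3.Y siRNA, against 5.63 and 5.90 with luciferase siRNA. The groups did not overlap, and the combined minus H3.Y difference of 0.92 ± 0.22 SE did not pass (n = 2 arrays each, limma adjusted p = 0.0725). IRF7, which amplifies interferon production, differed by -0.12 there.

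None of the 4 RNA sensors passed. TLR3 gave 6.54 and 6.53 with combined siRNA and 4.86 and 5.82 with H3.Y siRNA, against 6.07 and 6.34 with luciferase siRNA. The H3.Y arrays differed by about as much as the groups did, and the combined minus H3.Y difference was 1.20 ± 0.30 SE (n = 2 arrays each, limma adjusted p = 0.0864). IFIH1, encoding MDA5, gave 5.59 and 6.14 with combined siRNA and 5.30 and 5.19 with H3.Y siRNA, against 4.52 and 5.33 with luciferase siRNA. Its combined arrays were the highest, and the luciferase arrays lay far apart (combined minus luciferase 0.94 ± 0.30 SE, adjusted p = 0.206). RIGI, the founding member of the helicase family, gave 6.27 and 6.74 with combined siRNA and 6.40 and 6.13 with H3.Y siRNA, against 5.74 and 6.42 with luciferase siRNA, and all groups overlapped.

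In the group of ISG15, a ubiquitin-like modifier, with its protease USP18 and the proteins HERC5 and HERC6, HERC6 passed. It gave 6.25 and 6.26 with combined siRNA and 5.30 and 5.27 with H3.Y siRNA, against 5.61 and 5.91 with luciferase siRNA. No groups overlapped, and HERC6 was 1.97-fold higher with combined than with H3.Y siRNA (log2 0.98 ± 0.15 SE, n = 2 arrays each, limma adjusted p = 0.023). HERC5, the main human ISG15 ligase, was in the lowest 25% of probe sets, at 2.09 and 2.25 with combined siRNA and 1.90 and 2.35 with H3.Y siRNA, against 2.10 and 2.35 with luciferase siRNA.

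ISG15 itself gave 5.33 and 5.36 with combined siRNA and 5.45 and 5.32 with H3.Y siRNA, against 5.55 and 5.39 with luciferase siRNA. All values lay close together, and the 95% interval of the combined minus luciferase difference ran from -0.45 to 0.20 log2 units. Its promoter carries the overlapping cores printed above. USP18, which removes ISG15 from proteins, gave 6.65 and 7.14 with combined siRNA and 6.32 and 6.62 with H3.Y siRNA, against 6.32 and 6.62 with luciferase siRNA, and passed in no comparison.

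A mixed group of 8 genes was named for restriction of entry, budding and nuclear import and for GTPases. Of these, SAMD9, a cytoplasmic restriction factor of poxviruses, passed. It gave 5.88 and 6.03 with combined siRNA and 4.98 and 5.17 with H3.Y siRNA, against 5.19 and 5.49 with luciferase siRNA. Groups did not overlap, and SAMD9 was 1.84-fold higher with combined than with H3.Y siRNA (log2 0.88 ± 0.16 SE, n = 2 arrays each, limma adjusted p = 0.0367). BST2, or tetherin, which holds budding virions at the surface, gave 5.28 and 5.67 with combined siRNA and 4.61 and 4.49 with H3.Y siRNA, against 4.93 and 5.34 with luciferase siRNA. The H3.Y arrays were the lowest, and the combined minus H3.Y difference of 0.93 missed the threshold (adjusted p = 0.0597).

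RSAD2, or viperin, gave 4.68 and 5.04 with combined siRNA and 4.13 and 4.46 with H3.Y siRNA, against 4.23 and 4.16 with luciferase siRNA. The combined arrays were the highest, with no comparison passing. MX1, a GTPase that traps viral ribonucleoproteins, was highest on the H3.Y arrays, at 3.64 and 3.82 with combined siRNA and 4.17 and 4.07 with H3.Y siRNA, against 3.78 and 3.89 with luciferase siRNA, and its combined minus H3.Y difference was -0.39 (adjusted p = 0.192). IFITM3, which blocks fusion of viral membranes, gave 7.28 and 7.98 with combined siRNA and 7.91 and 7.84 with H3.Y siRNA, against 7.86 and 7.94 with luciferase siRNA, with all groups overlapping. IFITM3 and IFITM1 belong to a family of near-identical genes, and probes shared within it were not tested.

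The chemokine CXCL10, which attracts activated T cells, gave 3.40 and 3.30 with combined siRNA and 2.56 and 2.67 with H3.Y siRNA, against 2.30 and 2.61 with luciferase siRNA. Both combined arrays were above the others, yet the gene's mean over all arrays was in the lowest 25% of probe sets. CXCL10 was 1.86-fold higher with combined than with luciferase siRNA (log2 0.90 ± 0.15 SE, n = 2 arrays each, limma adjusted p = 0.049). CXCL11, its relative on chromosome 4, gave 2.35 and 3.18 with combined siRNA and 2.37 and 2.66 with H3.Y siRNA, against 2.23 and 2.40 with luciferase siRNA, with overlapping groups.

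Among the other interferon-induced proteins, IFI44 passed. It gave 6.55 and 6.97 with combined siRNA and 5.20 and 5.35 with H3.Y siRNA, against 5.99 and 6.35 with luciferase siRNA. No groups overlapped, and IFI44 was 2.80-fold higher with combined than with H3.Y siRNA (log2 1.48 ± 0.20 SE, n = 2 arrays each, limma adjusted p = 0.0176). Its neighbour and paralog on chromosome 1, IFI44L, had a difference of 0.03 there.

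PARP9, an ADP-ribosyltransferase that works with DTX3L, gave 6.34 and 6.71 with combined siRNA and 4.51 and 5.59 with H3.Y siRNA, against 5.97 and 6.54 with luciferase siRNA. The H3.Y arrays were the lowest and far apart (combined minus H3.Y 1.47 ± 0.38 SE, n = 2 arrays each, limma adjusted p = 0.089). IFI6, a protein of mitochondria and the endoplasmic reticulum, gave 7.24 and 7.48 with combined siRNA and 6.79 and 6.78 with H3.Y siRNA, against 7.09 and 7.40 with luciferase siRNA. IFI35 gave 5.16 and 5.39 with combined siRNA and 4.95 and 4.96 with H3.Y siRNA, against 5.05 and 4.86 with luciferase siRNA, and neither of these passed. Of the members not yet given, which also passed nowhere, the combined minus H3.Y differences were 0.23 for DHX58, 0.05 for IFI27, 0.48 for XAF1, 0.24 for MX2, -0.02 for CMPK2 and 0.11 for IFITM1.

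**Figure D4:**
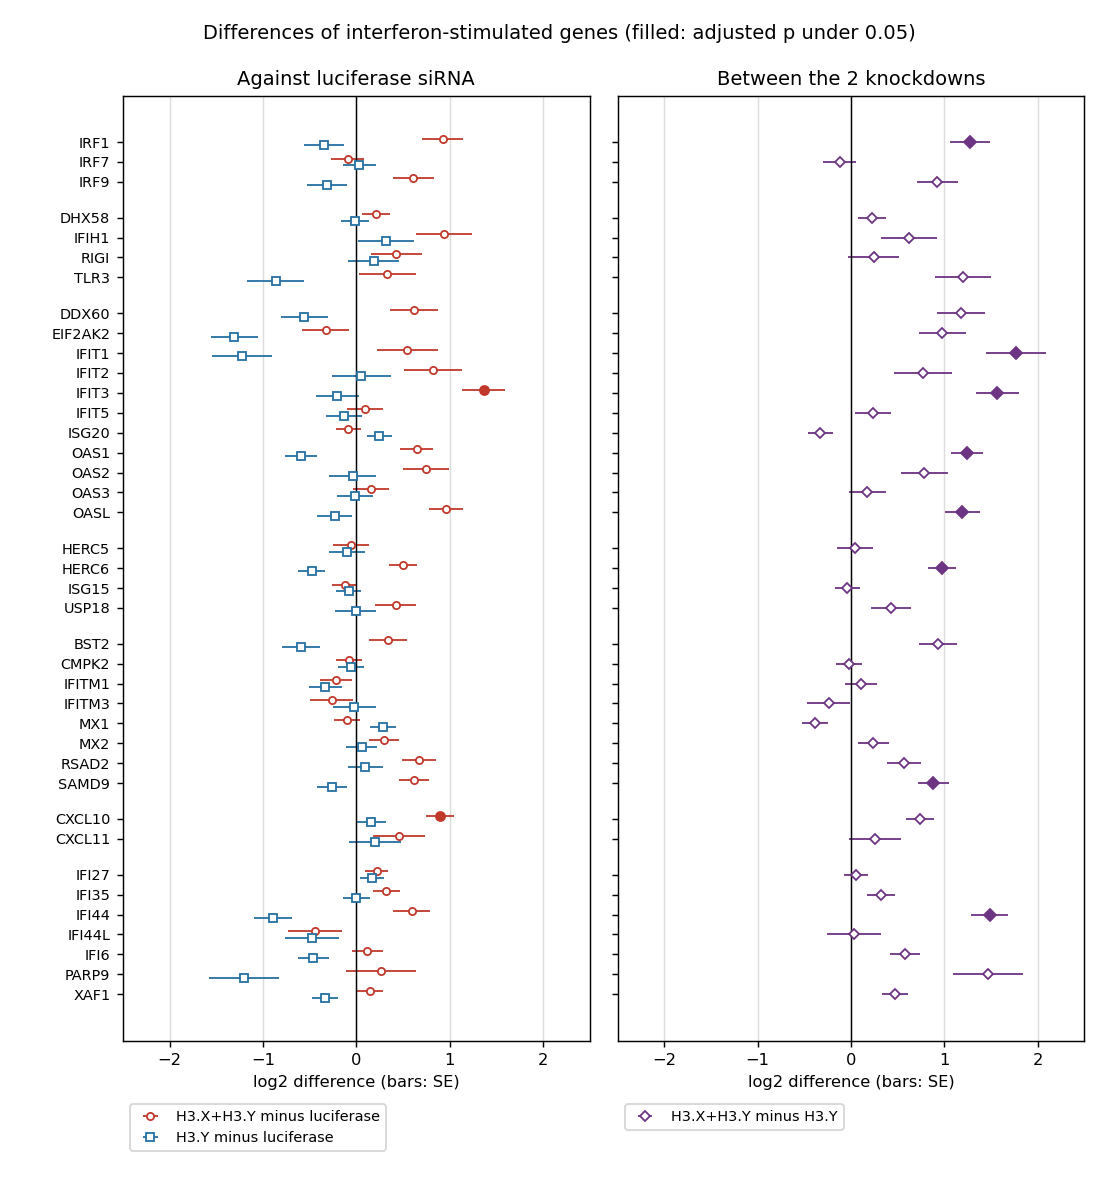
Log2 differences of the 39 members with standard errors, against luciferase siRNA (left) and between combined and H3.Y siRNA (right); filled symbols passed at an adjusted p under 0.05. On the left IFIT3 at 1.36 and CXCL10 at 0.90 are filled, and on the right 8 genes are, from SAMD9 at 0.88 to IFIT1 at 1.77.

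These calls rested on few arrays. For combined against luciferase siRNA, centring each array on its median or fitting only the 4 arrays compared left 0 members called. In these fits 1.77% and 1.93% of all probe sets passed. Fits without a combined or a luciferase array leave 1 array in that group, so a lost call there says little about the members. Over all alternatives run, the limma adjusted p ranged from 0.0162 to 0.229 for IFIT3, which passed in 4 of 12, and from 0.0441 to 0.342 for CXCL10, which passed in 2 of 11. The log2 difference itself stayed between 1.08 and 1.65 for IFIT3 and between 0.74 and 1.05 for CXCL10 in these alternatives. For H3.Y against luciferase siRNA, leaving out H3.Y array 2 gave 2 members, EIF2AK2 and TLR3, both lower, where 1.89% of all probe sets passed. Between combined and H3.Y siRNA, no fit that left out a single array kept all of the 8 calls. Without H3.Y array 2, IFIT3, IRF1, HERC6 and SAMD9 lost the call, and EIF2AK2, PARP9 and TLR3 gained it. Such fits leave 1 array in a group, so lost or gained calls there say little about the members. Over all alternatives, the log2 differences of the 8 lay between 0.79, for SAMD9, and 2.23, for IFIT1. HERC6 and IFI44 were the members called when only the 4 arrays compared were fitted.

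The 23 genes with a core had median log2 differences of 0.22 for combined against luciferase siRNA and 0.58 for combined against H3.Y siRNA, and the 9 genes without it in the window had 0.45 and 0.48. Between combined and H3.Y siRNA, 4 of the 23 and 3 of the 9 passed, and those 3 were OAS1, IRF1 and HERC6. In that comparison 4.67% of all probe sets passed, and 6.665% of those with exactly 1 symbol. Whether the genes with and without a core differed was not tested.

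Of 40 other measured interferon-induced genes, 4 rose and 0 fell with combined against luciferase siRNA, beside the 1.84% of all probe sets that passed. They were TRIM22, at 1.21, GBP2, at 0.99 by 1 of its probe sets, RTP4, at 0.96, and IFI30, at 0.91 (log2, limma adjusted p from 0.0285 to 0.0363). With H3.Y siRNA 0 passed against luciferase siRNA, where limma gave 5 higher and 10 lower at an unadjusted p under 0.05, beside 6.21% and 7.66% of all probe sets. Between combined and H3.Y siRNA 10 were higher, among them IFI30 at 1.46 and DTX3L, the partner of PARP9, at 1.38, and NT5C3A was lower at -1.11. In that comparison 2.74% of all probe sets passed as higher and 1.92% as lower.

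None of the 5 measured interferon genes passed in any comparison. IFNB1, encoding interferon beta, was at 2.23 and 2.10 with combined siRNA and 2.28 and 2.21 with H3.Y siRNA, against 2.13 and 2.17 with luciferase siRNA, and with IFNK, IFNE and IFNG it was in the lowest 25% of probe sets. IFNL1, encoding an interferon lambda, was above that bound, at 4.67 and 4.82 with combined siRNA and 4.91 and 4.55 with H3.Y siRNA, against 4.61 and 4.62 with luciferase siRNA. The H3.Y arrays spanned all the other values of IFNL1. STAT3, a transducer of cytokine signals, was 1 of 20 measured genes for interferons, receptors and JAK-STAT to pass. STAT3 passed with combined siRNA against luciferase and against H3.Y siRNA, where 1.84% and 4.67% of all probe sets passed. It gave 9.51 and 9.41 with combined siRNA and 8.77 and 8.62 with H3.Y siRNA, against 8.64 and 8.58 with luciferase siRNA (0.85 ± 0.13 SE over luciferase, n = 2 arrays each, limma adjusted p = 0.0388).

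Of 25 measured genes for nucleic acid sensing, TRAF6, a signalling ligase, rose by 0.80 and PRKRA, an activator of PKR, fell by 0.93 on the log2 scale with combined against luciferase siRNA (limma adjusted p = 0.0448 and 0.0479). In that comparison 1.84% of all probe sets passed. PRKRA gave 8.23 and 8.46 with combined siRNA and 9.40 and 9.13 with H3.Y siRNA, against 9.30 and 9.24 with luciferase siRNA. Of 13 measured genes for antigen presentation, PSMB8, an immunoproteasome subunit induced by interferon, fell by 1.15 with combined against luciferase siRNA (adjusted p = 0.0448), beside the same 1.84% of all probe sets. Of 18 measured NF-kB targets, 0 passed against luciferase siRNA in limma. At an unadjusted p under 0.05 in limma, 4 were higher and 0 lower with combined siRNA, beside 7.16% and 8.12% of all probe sets. With H3.Y siRNA 4 were higher, among them CCL20 at 1.84, and 1 was lower, beside 6.21% and 7.66%. The lower gene was CCL2, a monocyte chemokine, at -0.95. CCL2 passed between combined and H3.Y siRNA, where it was higher by 1.43 with combined siRNA.

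**Figure D5:**
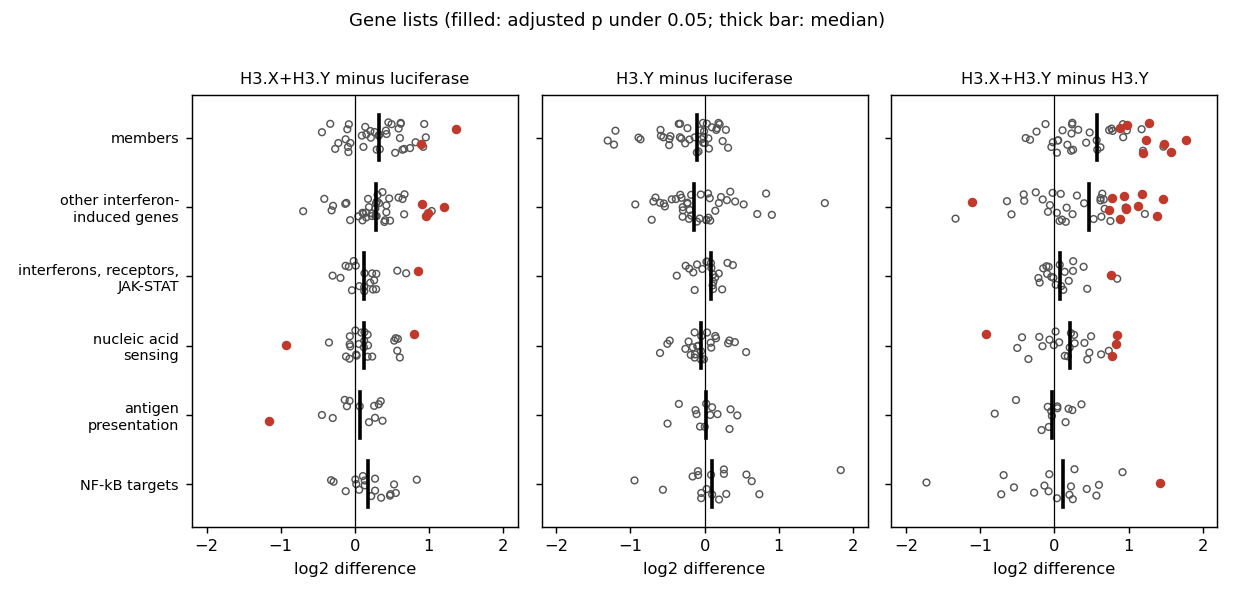
Log2 differences of the members and of 5 other gene lists in the 3 comparisons; each point is a gene, filled where it passed at an adjusted p under 0.05, and thick bars are medians. The members' medians are 0.33, -0.10 and 0.57 from left to right.

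Some epithelial and osteoblast-lineage markers also differed between the groups. EPCAM, an epithelial adhesion molecule, gave 7.41 and 7.21 with combined siRNA and 4.65 and 5.05 with H3.Y siRNA, against 4.97 and 5.14 with luciferase siRNA, by 1 of its probe sets. Its other probe set gave 7.69 and 7.88 with combined, 3.34 and 4.34 with H3.Y and 4.96 and 5.15 with luciferase siRNA. By that probe set the H3.Y arrays lay below the luciferase arrays, where the first overlapped. It was the 1 of 5 measured epithelial markers to pass, and their summed linear signal was 4654 to 5019 with combined siRNA and 2034 to 3121 with H3.Y siRNA, against 3347 to 4398 with luciferase siRNA. The 7 measured osteoblast-lineage markers summed to 4154 to 4915 with combined siRNA and 1547 to 1834 with H3.Y siRNA, against 2021 to 2105 with luciferase siRNA. This sum rests mainly on SPARC and COL1A1, with mean log2 values of 10.67 and 9.35, beside 6.02 for ALPL, the next highest. COL1A1 passed in both comparisons of the combined siRNA (log2 1.58 over luciferase and 2.10 over H3.Y siRNA, limma adjusted p = 0.0191 and 0.00576) and SPARC against H3.Y siRNA (1.31, adjusted p = 0.0186), while SP7, ALPL and IBSP differed by 0.00, 0.12 and 0.16 between combined and luciferase siRNA. RUNX2 and COL1A2 differed there by 0.48 and 0.39 and did not pass. Against H3.Y siRNA, SP7 and ALPL were at -0.07 and -0.21 with combined siRNA. The 6 measured blood and immune markers, of which 0 passed in any comparison, summed to 82.3 to 96.7 with combined siRNA and 82.4 to 94.0 with H3.Y siRNA, against 76.7 to 89.9 with luciferase siRNA. The 2 measured plasmacytoid dendritic cell markers summed to 17.4 to 19 with combined siRNA and 17.4 to 18.6 with H3.Y siRNA, against 16.1 to 19.1 with luciferase siRNA, and 0 passed. The 3 endothelial markers summed to 40.3 to 41.2 with combined siRNA and 34.6 to 38.1 with H3.Y siRNA, against 38.9 to 39.5 with luciferase siRNA, and 0 passed. The part of the epithelial and osteoblast markers in the members' differences was not tested.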

How the data were processed

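Per the labels, total RNA from 6 U2OS samples was isolated with the RNeasy kit and labelled by the Affymetrix protocol. The authors deposited 1 table of normalised values, read here as log2 from their range of 0.687 to 14.0, and the submitters' processing notes name oligo; further steps are not given in those notes. The arrays' number limits the precision. Probe sets were named from the platform annotation of 2016, with symbols updated through Entrez IDs (RefSeq, GRCh38.p14): 19460 had 1 symbol, 1754 several and 12083 none. limma 3.58.1 (R 4.3.3) was fitted to all 33297 probe sets and 6 arrays without a block, with 3 comparisons and Benjamini-Hochberg adjustment, and was tested on simulated data. Members and lists were chosen with earlier results of these data known. Values are given for members passing in any comparison, for the 2 with the smallest p per role in each comparison with luciferase, and for the 3 highest and 3 lowest by mean. From other lists, members that passed and those with the smallest p were eligible. Alternatives were a replicate block, fits of only the arrays compared, quantile normalisation, median centring, a mean of at least 5, a variance trend and leaving out each array.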

Additional observations from a re-analysis of the deposited data

Results flagged for a closer look

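The effects of combined and of H3.Y siRNA, each against the same luciferase arrays, differed by a direct limma test of combined minus H3.Y siRNA for 24 of the 154 measured genes on the lists examined, of which 8 were among the 39 interferon-stimulated genes of the main list and 16 among 115 others. The same test passed 4.67% of all probe sets and 6.665% of those with exactly 1 symbol. The log2 differences of these 8 were 1.77 for IFIT1, 1.57 for IFIT3, 1.48 for IFI44, 1.27 for IRF1, 1.24 for OAS1, 1.19 for OASL, 0.98 for HERC6 and 0.88 for SAMD9. Among 16 genes of the other lists, the differences were 1.46 for IFI30, 1.43 for CCL2, 1.38 for DTX3L, 1.18 for TRIM22, 1.13 for NMI, 0.97 for GBP2, 0.97 for TRIM14 and 0.94 for PARP14. They were 0.89 for RTP4, 0.85 for TRAF6, 0.83 for ADAR, 0.78 for TRIM25, 0.76 for STAT3 and 0.74 for GBP3. NT5C3A and PRKRA were lower with combined siRNA, at -1.11 and -0.92. The luciferase arrays cancel in this difference but still enter the estimate of spread in the test. With only the 4 arrays compared, 2 of the 8 members passed, HERC6 and IFI44, where 1.35% of all probe sets did. Groups of 2 arrays were too small to look for single outlying arrays.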

How the results depend on the processing

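Against luciferase siRNA, the count of 2 members for combined siRNA became 0 with only the 4 arrays compared and 0 with median centring, where 1.93% and 1.77% of all probe sets passed, and 0 to 0 when each array was left out. Some of these fits have fewer residual degrees of freedom, and without either combined or either luciferase array 0 of all 33297 probe sets passed. The median of 0.33 ranged from 0.208 to 0.540 when each array was left out. For H3.Y siRNA the count of 0 became 1 with a mean of at least 5 (EIF2AK2, lower, where 3.14% of the 17207 probe sets kept passed) and 0 to 2 when each array was left out. Its median of -0.10 was -0.13 after quantile normalisation, -0.23 with a mean of at least 5, and -0.225 to -0.098 when each array was left out. Between combined and H3.Y siRNA the count of 8 became 2 with only the 4 arrays compared, 14 with a mean of at least 5 (where 14.8% of probe sets passed and the median was 0.88) and 0 to 7 when each array was left out. The fit with the replicate number as a block gave 13, adding BST2, DDX60, EIF2AK2, IRF9 and PARP9 to the same 8, where 5.34% of all probe sets passed. Against luciferase siRNA the block gave 2 for combined siRNA (IFIT3 and OASL, with CXCL10 at an adjusted p of 0.0521 in limma) and 0 for H3.Y siRNA, where 2.25% and 0.204% of all probe sets passed. The labels tie the replicate numbers to no shared batch or day, and 2 numbers are too few to settle a pairing from the data, so no block was used. Deviations of same-numbered arrays nevertheless correlated positively, at 0.220 for H3.Y with luciferase, 0.280 for combined with luciferase and 0.122 for combined with H3.Y siRNA. IFIH1 with H3.Y against luciferase siRNA was 0.32 and ranged from -0.0879 without luciferase replicate 1 to 0.722 without luciferase replicate 2. Its luciferase arrays were at 4.52 and 5.33, on either side of the H3.Y mean of 5.24, so the sign depended on which was kept. Of the other values for single named genes, 357 kept direction and side of the threshold, 62 lost the call and 6 gained it. Only values called in the main fit could lose the call, and most of the 357 were called neither there nor in the alternative. With 2 arrays per group and no group without siRNA, effects of the siRNAs themselves and of the targets cannot be told apart.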
